A study of Homo sapiens with 4 samples.

Results

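Chromatin regulators are the enzymes and reader proteins that set, remove or recognise chemical marks on histones and DNA, or that move nucleosomes. Acetyltransferases and deacetylases add and remove acetyl groups on histone lysines, methyltransferases and demethylases do the same for methyl groups, and bromodomain and PHD finger proteins recognise the marked tails. Remodellers spend ATP to slide or evict nucleosomes, and DNMT and TET enzymes write and oxidise DNA methylation. In neuroblastoma cells this machinery is studied for its part in holding a neuronal identity and in the balance between growth and differentiation.

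The genes described here were chosen by symbol alone, from the families KDM, KMT, SETD, KAT, HDAC, SIRT, BRD, PHF, CHD and ARID, with EZH1, EZH2 and the DNMT and TET enzymes. They came to 108 of the 14884 genes with a named probe set. SMARC genes belong to the same rule, but 0 of them had a named probe set, and they were not analysed here. Of the 108 genes, 104 are protein coding, and the other 4 are the noncoding KDM4A-AS1, KDM7A-DT and KMT2E-AS1 and the pseudogene BRD7P3. KDM4E, KDM5D and BRD7P3 lay below the filter on dim genes (3.82 on the log2 scale) and were not tested. The remaining 105 were tested among 11883 genes.

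SH-SY5Y, an established human neuroblastoma line, was profiled on Affymetrix Human Gene 2.0 ST arrays, 4 in all. Cultures received the protein disulfide isomerase (PDI) inhibitor origamicin at 30 µM for 24 h, or its solvent methanol for 24 h (mock treatment), with 2 arrays per group. PDI enzymes form and rearrange disulfide bonds during protein folding in the endoplasmic reticulum. The replicates are labelled biological, but the labels do not say how the cultures were kept apart. The p-values below therefore reflect the scatter among these 4 arrays, which may be partly technical.

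Array values carry no counting depth, and the number of arrays limits the precision. Across the genes tested, r was 0.995 between the mock arrays and 0.994 between the origamicin arrays. The labelled cell type was checked on 20 tested noradrenergic neuroblastoma markers. DBH read 12.33 to 12.53, HAND2 11.23 to 11.34 and GATA3 11.09 to 11.12 over the 4 arrays, while TH, a defining enzyme of the lineage, read only 5.52 to 5.82. The mean log2 level of the list was 9.71 and 9.73 in mock and 9.50 and 9.54 in origamicin cultures, with 17 of 20 markers lower. For 17 mesenchymal markers it was 5.75 and 5.85 in mock and 5.92 and 5.94 in origamicin, and for 7 glial markers 4.89 to 4.97. No marker of either list is a chromatin regulator here. The part of these shifts in the results below was not tested, and in bulk RNA fewer cells of a type and less RNA per cell cannot be told apart.

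Chromatin regulators changed little after origamicin. The quartiles of the 105 log2 changes (origamicin minus mock) lay at -0.12 and 0.04, with a median of -0.03, and the extremes were -0.43 and 0.45. Over all 11883 genes tested the median was -0.01 and the quartiles lay at -0.11 and 0.10. The median absolute change was 0.08 for chromatin regulators and 0.11 for all genes. None of the 105 moved by more than 1.5-fold (0%), and over all genes tested 163 did, a share of only 1.37%.

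**Figure D1:**
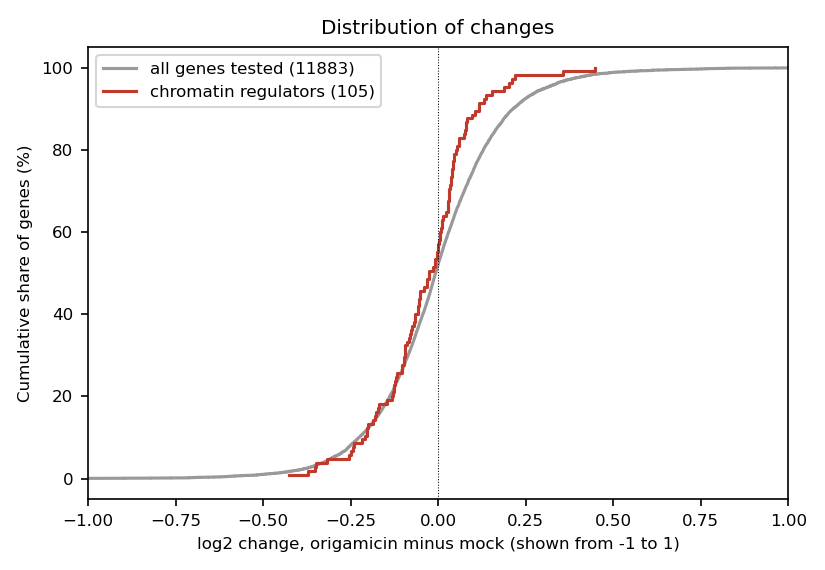
Cumulative share of genes (vertical axis, percent) against log2 change, origamicin minus mock (horizontal axis, shown from -1 to 1), for the 105 chromatin regulators and the 11883 genes tested. Both curves cross the middle near 0, at -0.03 and -0.01, and the curve of the chromatin regulators ends within -0.43 and 0.45.

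In the limma fit 0 of 105 chromatin regulators had an adjusted p under 0.05, and over all genes tested the share was likewise 0%. At an adjusted p under 0.1 there were also 0 of 105, against 0.446% of all genes. At an unadjusted p under 0.05 there were 15 (4 higher, 11 lower), or 14.3%, against 16.4% of all genes, with all 4 arrays. By direction, the 4 higher made 3.81% against 7.99% of all genes, and the 11 lower made 10.5% against 8.42%. With arrays shifted to equal medians the split was 2 higher and 13 lower, against 6.56% higher and 9.20% lower over all genes. The 15 became fewer with any 1 array left out, which leaves a single array in 1 group. Whether the members' share then lay below that of all genes depended on the variance model. With the intensity trend described below, it also depended on the array left out.

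When the variance prior of limma was allowed to follow expression level (an intensity trend), 2 chromatin regulators passed an adjusted p of 0.05, KDM6B and CHD1L, both lower. That is 1.90% of the 105, against 4.30% of all genes tested, of which 2.16% were called lower and 2.14% higher. Neither call was made with a replicate block added to that fit, nor when mock replicate 1 or mock replicate 2 was left out. Without origamicin replicate 1 only CHD1L passed, and without origamicin replicate 2 only BRD7 did. At an unadjusted p under 0.05, 28 of the 105 were counted in the trend fit (8 higher, 20 lower), 26.7% against 19.7% of all genes, of which 9.21% were higher and 10.5% lower.

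The groups did not overlap for 58 of the 105 genes, 55.2%, against 48.6% of all genes tested. Here the lower side was the fuller one: in 38 genes both origamicin arrays lay below both mock arrays (36.2%, against 25.8% of all genes), and in 20 both lay above (19.0%, against 22.7%). With equal array medians the counts were 41 lower (39.0%, against 28.3% of all genes) and 15 higher (14.3%, against 19.9%). With quantile normalization they were 38 lower (36.2%, against 25.5%) and 18 higher (17.1%, against 23.2%).

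The changes were also bounded. For 102 of the 105 genes (97.1%) the 95% interval of the change in the limma fit lay wholly inside a 1.5-fold rise or fall, which held for 85.3% of all genes tested. The exceptions were KMT2D (0.12 to 0.78), HDAC10 (-0.78 to -0.07) and KDM4B (-0.68 to 0.18). The 105 genes were also brighter, with median log2 levels of 7.86 to 7.90 per array, against 6.52 to 6.55 over all genes tested. The part of signal level in the contrasts with all genes, here and above, was not tested.

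**Figure D2:**
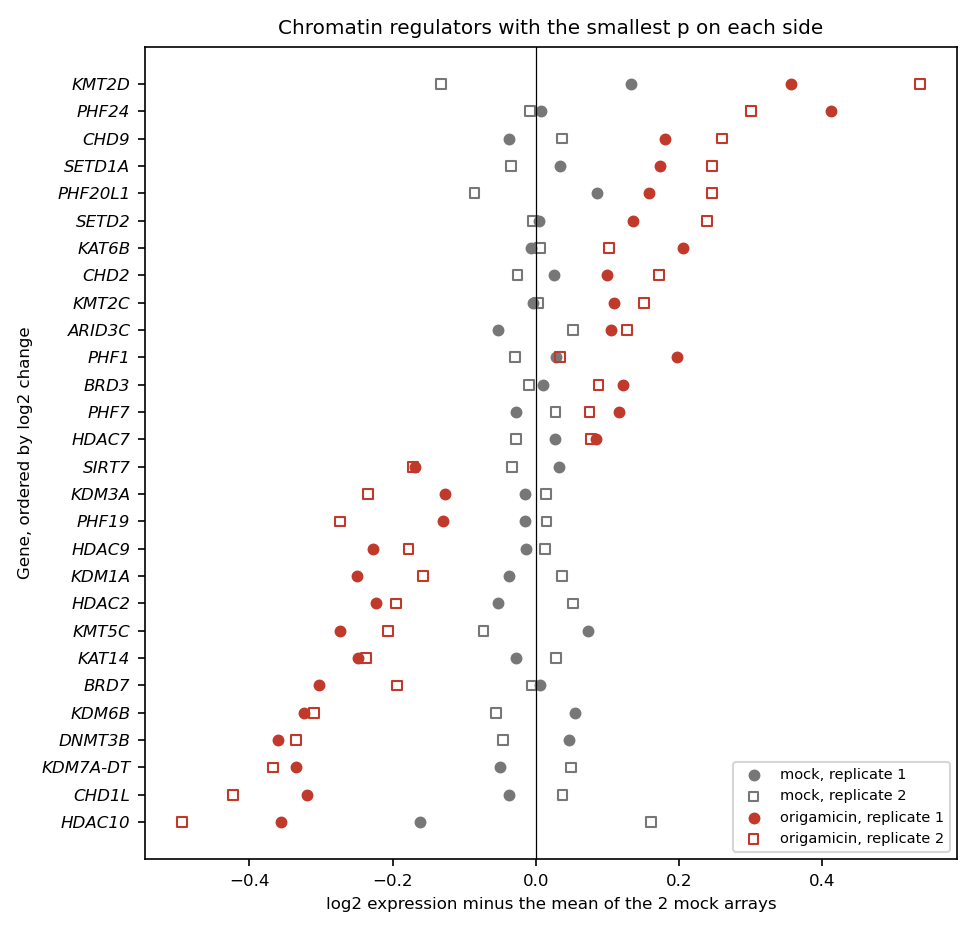
log2 expression on each of the 4 arrays minus the mean of the 2 mock arrays (horizontal axis) for the 14 chromatin regulators with the smallest p on each side (vertical axis, ordered by change), with mock in grey, origamicin in red, replicate 1 as filled circles and replicate 2 as open squares. In all 28 genes the origamicin arrays lie on one side of the mock arrays, since a small p selects for that, and with all 4 arrays the distance between group means is largest for KMT2D (0.45) and HDAC10 (-0.43).

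In what follows, an array "read" a log2 level, and a gene "stood at" a log2 change, origamicin minus mock, with the moderated SE of the limma fit over 2 arrays per group. Among the lysine demethylases, which remove methyl groups from histone tails, 17 genes were tested and 9 were lower (52.9%, against 52.1% of all genes tested). KDM6B (JMJD3), which removes the repressive methyl marks of lysine 27 on histone H3, read 9.02 and 8.91 on the mock arrays and 8.64 and 8.65 on the origamicin arrays. Both origamicin values lay below both mock values and close to each other. The change was -0.32 ± 0.07 (SE, 2 arrays per group), a 1.25-fold lower level, with a limma adjusted p of 0.18 and 0.029 with the intensity trend. Its paralog KDM6A (UTX), which acts on the same residue, stood at 0.01 ± 0.07, with a 95% interval of -0.19 to 0.20. The difference between the paralogs was not tested.

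KDM1A (LSD1), the amine oxidase that demethylates lysine 4 of histone H3 within the CoREST corepressor, read 10.91 and 10.98 in mock and 10.69 and 10.79 in origamicin cultures. This was a change of -0.20 ± 0.07 (limma adjusted p = 0.29), and its paralog KDM1B stood at -0.05 ± 0.07. KDM3A, a lysine 9 demethylase also known as a hypoxia-responsive gene, stood at -0.18 ± 0.07, and KDM3B at 0.03 ± 0.06. KDM4B, another lysine 9 demethylase, stood at -0.25 ± 0.16, but its mock arrays read 7.07 and 6.66 and overlapped the origamicin arrays at 6.70 and 6.53. KDM5B, a lysine 4 demethylase, stood at -0.13 ± 0.07, and KDM5A at 0.03 ± 0.06. The other members, KDM2A, KDM2B, KDM4A, KDM4C, KDM4D, KDM5C and KDM8, ran from -0.05 to 0.08.

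KDM7A, a demethylase of lysines 9 and 27, was measured beside KDM7A-DT, a noncoding RNA transcribed away from it. KDM7A-DT read 5.49 and 5.59 in mock and 5.21 and 5.17 in origamicin cultures, a change of -0.35 ± 0.07 (limma adjusted p = 0.18, and 0.15 with the intensity trend). KDM7A read 8.20 and 8.38 against 8.01 and 8.13, a change of -0.22 ± 0.09 (adjusted p = 0.36). In both genes the groups did not overlap. In RefSeq the starts of the pair lie head to head with 277 bases between them, so that most of the promoter is common to both. The sequence shared by their upstream windows is shown for that reason, read on the plus strand of GRCh38.p14 at chr7:140177011-140177233, with matches to the motifs described below in capitals.
KDM7A and KDM7A-DT: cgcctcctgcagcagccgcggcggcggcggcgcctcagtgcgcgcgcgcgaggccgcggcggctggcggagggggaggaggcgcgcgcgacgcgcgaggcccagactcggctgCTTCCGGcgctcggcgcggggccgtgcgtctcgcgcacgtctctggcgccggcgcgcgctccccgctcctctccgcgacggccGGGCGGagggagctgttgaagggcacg
This stretch of 223 bases holds 46 CpG dinucleotides, 1 ETS motif and 1 GC box.

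CHD proteins are remodellers that carry paired chromodomains, and CHD1L (ALC1) is the relative that carries a macrodomain and is activated by poly(ADP-ribose) at DNA breaks. Of the 10 tested, 7 were higher and 3 lower (30%, against 52.1% of all genes tested). CHD1L read 8.18 and 8.26 on the mock arrays and 7.90 and 7.80 on the origamicin arrays, without overlap. It was 1.29-fold lower (-0.37 ± 0.07, limma adjusted p = 0.18, and 0.027 with the intensity trend), the largest change of the CHD group. CHD9, at 8.93 and 9.005 in mock and 9.15 and 9.23 in origamicin cultures, stood at 0.22 ± 0.07 on the opposite side (adjusted p = 0.26). CHD2 stood at 0.14 ± 0.07 and CHD7, the gene mutated in CHARGE syndrome, at -0.17 ± 0.08. CHD8, a close relative of CHD9, stood at 0.04 ± 0.07. The NuRD remodellers CHD3, CHD4 and CHD5 stood at -0.10 ± 0.07, 0.04 ± 0.06 and 0.05 ± 0.18, and CHD1 and CHD6 at 0.04 ± 0.07 and 0.00 ± 0.07.

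The upstream windows of KDM6B and CHD1L are shown because these are the genes called with the intensity trend, and that of KMT2D because it had the largest change on the higher side. Each is the 250 bases before the first start that RefSeq lists for the gene (GRCh38.p14), read 5′ to 3′ on the gene's own strand. The starts held were 2 for KDM6B, 3 for CHD1L and 1 for KMT2D, and windows of the later starts were not examined. KDM6B lies on the plus strand at chr17:7833967-7834216, CHD1L on the plus strand at chr1:147242434-147242683 and KMT2D on the minus strand at chr12:49060795-49061044. Capitals mark matches to the searched motifs.
KDM6B: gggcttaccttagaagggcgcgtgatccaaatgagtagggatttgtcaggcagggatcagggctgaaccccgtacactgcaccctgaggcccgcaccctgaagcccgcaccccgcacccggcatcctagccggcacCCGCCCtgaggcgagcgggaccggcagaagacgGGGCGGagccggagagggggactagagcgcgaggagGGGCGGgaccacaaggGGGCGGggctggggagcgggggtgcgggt
CHD1L: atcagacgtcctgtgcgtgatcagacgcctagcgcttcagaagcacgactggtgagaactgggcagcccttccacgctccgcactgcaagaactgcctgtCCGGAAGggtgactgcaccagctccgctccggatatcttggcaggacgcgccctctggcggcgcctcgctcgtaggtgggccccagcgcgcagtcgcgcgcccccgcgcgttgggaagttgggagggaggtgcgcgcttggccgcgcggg
KMT2D: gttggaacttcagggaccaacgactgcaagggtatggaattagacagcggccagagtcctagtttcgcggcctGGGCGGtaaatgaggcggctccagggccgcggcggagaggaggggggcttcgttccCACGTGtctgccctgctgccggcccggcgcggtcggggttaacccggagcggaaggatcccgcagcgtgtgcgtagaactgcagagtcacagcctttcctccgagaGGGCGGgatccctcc
The KDM6B window holds 4 GC boxes and 21 CpG, the CHD1L window 1 ETS motif and 29 CpG, and the KMT2D window 1 E-box, 2 GC boxes and 23 CpG.

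The motifs searched, on both strands, were the E-box CACGTG, the ETS core CCGGAAG, the GC box GGGCGG, the cyclic AMP element TGACGTCA and the CCAAT box CCAAT, none of which contains another. RefSeq promoter sequences were held for 92 of the 105 tested chromatin regulators and for 9053 of all genes tested. Only the window of the first start listed was searched for each gene. An E-box was present in 10 of the 92 windows (10.9%, against 8.54% of all), an ETS core in 14 (15.2%, against 13.98%) and a GC box in 55 (59.8%, against 63.5%). The cyclic AMP element was found in 1 (SIRT4, 1.09%, against 2.60%) and CCAAT in 29 (31.5%, against 34.3%). The median number of CpG per window was 23, against 20 over all genes. These are matches of letters, not binding sites.

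Lysine methyltransferases write the marks that demethylases remove. Of the 15 tested, 9 were higher and 6 lower, against 52.1% of all genes lower, with a median change of 0.02. KMT2D (MLL4), which monomethylates lysine 4 of histone H3 at enhancers, read 7.58 and 7.32 in mock and 7.80 and 7.99 in origamicin cultures. The groups did not overlap, and the mock SD of 0.19 was the largest among the 4 genes on the higher side with an unadjusted p under 0.05. It was 1.36-fold higher (0.45 ± 0.12, limma adjusted p = 0.23, and 0.064 with the intensity trend). Its paralog KMT2C (MLL3) read 9.86 on both mock arrays and 9.97 and 10.01 on the origamicin arrays, a change of 0.13 ± 0.06 (adjusted p = 0.40). SETD1A, the methyltransferase of the main promoter lysine 4 complex, read 7.10 and 7.03 against 7.24 and 7.31 (0.21 ± 0.07, adjusted p = 0.27). SETD2, which trimethylates lysine 36 along transcribed genes, read 7.86 on both mock arrays and 7.996 and 8.10 on the origamicin arrays (0.19 ± 0.07, adjusted p = 0.31). KMT2B stood at 0.08 ± 0.08 with overlapping groups.

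KMT5C and KMT5B, which extend methylation of lysine 20 of histone H4 beyond the monomethyl state, were on the lower side. KMT5C read 6.81 and 6.67 in mock and 6.47 and 6.53 in origamicin cultures (-0.24 ± 0.08, limma adjusted p = 0.27), and KMT5B stood at -0.18 ± 0.08. KMT5A, which monomethylates the same residue, stood at 0.02 ± 0.06. The catalytic subunits of Polycomb repressive complex 2 moved little. EZH2 stood at -0.08 ± 0.06, with an interval of -0.24 to 0.09, and EZH1 at -0.0013 ± 0.06. SETD3, SETD5, SETD6, SETD7 and SETD9 ran from -0.10 to 0.08.

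**Figure D3:**
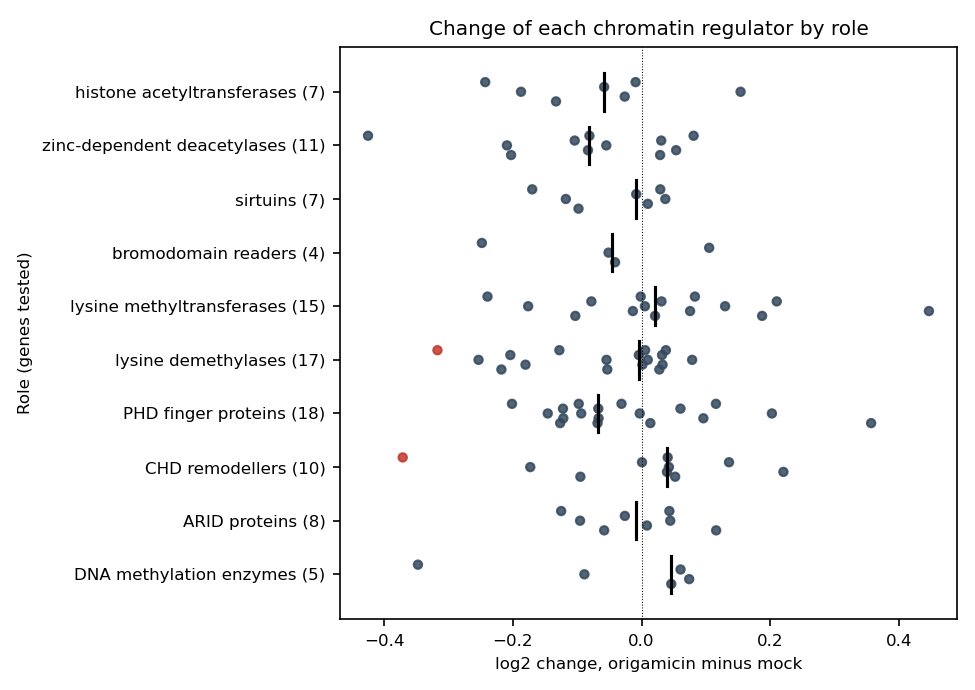
log2 change, origamicin minus mock (horizontal axis), of each tested protein-coding chromatin regulator by role (vertical axis, genes tested in brackets), with the role's median as a black bar and genes with an adjusted p under 0.05 in the intensity-trend fit in red. Role medians lie between -0.08 for zinc-dependent deacetylases and 0.05 for DNA methylation enzymes, and the red points are KDM6B and CHD1L.

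Zinc-dependent deacetylases (HDAC1 to HDAC11) remove acetyl groups from histones and from many other proteins. Of the 11 tested, 7 were lower (63.6%, against 52.1% of all genes tested) and 4 higher. The groups did not overlap in those 7 (25.8% of all genes did so on the lower side) nor in 3 of the 4 higher genes (22.7% of all genes), some of them at changes as small as 0.03. HDAC10, best known as a polyamine deacetylase, read 5.64 and 5.97 in mock and 5.45 and 5.31 in origamicin cultures. Its change of -0.43 ± 0.13 was the largest on the lower side with all 4 arrays, with a mock SD of 0.23 and a limma adjusted p of 0.25. It was -0.59 without mock replicate 1 and -0.26 without mock replicate 2. In the latter setting other members were lower still, among them KDM4B, DNMT3B (-0.39), KDM6B (-0.37), CHD1L (-0.33), KMT5C (-0.31) and KDM7A-DT (-0.30). HDAC9, a class IIa enzyme, read 8.30 and 8.33 against 8.09 and 8.14 (-0.20 ± 0.06, adjusted p = 0.26), and its relative HDAC4 stood at -0.05 ± 0.06. The dimmer named probe set of HDAC4 changed by -0.21.

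HDAC2, a catalytic subunit of the NuRD, SIN3 and CoREST corepressors, read 6.64 and 6.75 in mock and 6.47 and 6.501 in origamicin cultures. Its change was -0.21 ± 0.07 (limma adjusted p = 0.27), and its dimmer named probe set changed by -0.36. HDAC1, which sits in the same complexes, stood at -0.10 ± 0.07, and HDAC3, the enzyme of the NCoR complex, at -0.08 ± 0.06. HDAC6, the tubulin deacetylase and closest relative of HDAC10, stood at -0.08 ± 0.07. HDAC5, HDAC7, HDAC8 and HDAC11 were the 4 on the higher side, from 0.03 to 0.08.

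Sirtuins are NAD-dependent deacylases, and 0 of the 7 had an unadjusted p under 0.05, against 16.4% of all genes tested. SIRT7, a nucleolar enzyme, read 7.23 and 7.16 in mock and 7.03 and 7.02 in origamicin cultures (-0.17 ± 0.07, limma adjusted p = 0.32). The nuclear SIRT1 and SIRT6 stood at 0.01 ± 0.08 and -0.01 ± 0.08. The cytoplasmic SIRT2 stood at 0.03 ± 0.09, and the mitochondrial SIRT3, SIRT4 and SIRT5 at 0.04 ± 0.08, -0.10 ± 0.12 and -0.12 ± 0.06. The groups did not overlap for SIRT5 and SIRT7.

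Histone acetyltransferases of the KAT series were lower in 6 of 7 cases (85.7%, against 52.1% of all genes tested). In 5 of the 7 the groups overlapped, and in 28.6% they did not, against 48.6% of all genes. An unadjusted p under 0.05 in the limma fit was found for 1 of the 7 (14.3%, against 16.4% of all genes). KAT14, a subunit of the ATAC complex, read 7.29 and 7.35 in mock and 7.07 and 7.08 in origamicin cultures (-0.24 ± 0.06, limma adjusted p = 0.21). KAT6B, a MYST family enzyme, was the exception on the higher side (0.15 ± 0.07, adjusted p = 0.38), and these were the pair whose groups did not overlap. KAT2A and KAT2B, the alternative catalytic subunits of SAGA and ATAC, stood at -0.06 ± 0.11 and -0.19 ± 0.12. KAT5 (TIP60), KAT7 and KAT8 stood at -0.03 ± 0.15, -0.01 ± 0.07 and -0.13 ± 0.10.

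Bromodomain proteins read acetylated lysines, and 4 were tested. BRD7, a subunit of the PBAF remodeller, read 9.25 and 9.24 in mock and 8.94 and 9.05 in origamicin cultures, a change of -0.25 ± 0.07 (limma adjusted p = 0.23, and 0.052 with the intensity trend). The BET proteins BRD2 and BRD3, which tether transcription complexes to acetylated chromatin, stood at -0.05 ± 0.06 and 0.11 ± 0.06. BRD8 stood at -0.04 ± 0.08 with overlapping groups.

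PHD finger proteins form the most mixed family, since the finger reads methylated or unmodified histone tails but also occurs in proteins with other roles. Of the 18 tested, 12 were lower (66.7%, against 52.1% of all genes tested) and 6 higher. PHF24 read 4.68 and 4.66 in mock and 5.08 and 4.97 in origamicin cultures (0.36 ± 0.07, limma adjusted p = 0.18, and 0.19 with the intensity trend). PHF24 (GINIP) is known for inhibitory G protein signalling in neurons rather than for chromatin, and its values lay near the filter at 3.82. PHF20L1, a reader of methylated lysines, stood at 0.20 ± 0.09, and PHF7 at 0.10 ± 0.07.

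PHF19 and PHF1 are Polycomb-like proteins that bring Polycomb repressive complex 2 to chromatin. PHF19 read 7.90 and 7.93 in mock and 7.78 and 7.64 in origamicin cultures (-0.20 ± 0.08, limma adjusted p = 0.32). PHF1 stood at 0.12 ± 0.08 on its brightest probe set, and at 0.13 and -0.07 on the other named ones. The brightest probe set gave 0.03 without origamicin replicate 1 and 0.20 without origamicin replicate 2. PHF8, a demethylase related to KDM7A, stood at -0.12 ± 0.06, while its relative PHF2 stood at 0.01 ± 0.09. PHF14 and PHF23 stood at -0.13 ± 0.06 and -0.15 ± 0.07. PHF10, a PBAF subunit of dividing neural progenitors, stood at -0.12 ± 0.11 with overlapping groups, and PHF5A, a splicing factor subunit, at -0.09 ± 0.06. PHF3, PHF6, PHF12, PHF13, PHF20, PHF21A and PHF21B ran from -0.10 to 0.06.

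ARID proteins bind DNA through an AT-rich interaction domain. Of the 8 tested, 0 had an unadjusted p under 0.05, against 16.4% of all genes tested. ARID1A and ARID1B, the alternative large subunits of the BAF remodeller, stood at 0.01 ± 0.08 and 0.04 ± 0.09. Their intervals of -0.21 to 0.23 and -0.19 to 0.28 lie inside 1.5-fold. ARID3A had the smallest p of the family (-0.12 ± 0.06), and ARID3C stood at 0.12 ± 0.07 on dim values of 4.56 to 4.74. ARID3B, ARID4B, ARID5A and ARID5B ran from -0.10 to 0.04.

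Of the enzymes that act on DNA itself, the de novo methyltransferase DNMT3B had the smallest limma p of all 105 genes (0.0056). KDM7A-DT, CHD1L and PHF24 were close to it (0.0058, 0.0058 and 0.0059), and with the intensity trend CHD1L and KDM6B had the smallest p. DNMT3B read 6.68 and 6.59 in mock and 6.28 and 6.30 in origamicin cultures, a 1.27-fold lower level (-0.35 ± 0.07, limma adjusted p = 0.18, and 0.075 with the intensity trend). Its paralog DNMT3A stood at 0.05 ± 0.07 and the maintenance methyltransferase DNMT1 at 0.07 ± 0.08. The TET dioxygenases TET1 and TET2, which oxidise methylcytosine, stood at -0.09 ± 0.07 and 0.06 ± 0.08, and the dimmer probe set of TET1 at -0.09. The window before the 1 start held for DNMT3B (plus strand, chr20:32779602-32779851) has 3 CpG, against a median of 20 over all genes. Whether the gene has other starts was not examined, so the count describes that window only.

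DNMT1 and EZH2 are known to follow the cell cycle, and cell cycle genes were examined beside them. Of 19 tested mitosis and G2/M genes, 18 were lower, against 52.1% of all genes tested. The list means were 9.74 on both mock arrays and 9.54 and 9.57 on the origamicin arrays. Of 22 tested DNA replication genes, 15 were higher, with list means of 8.96 and 8.98 against 9.02 and 9.03. The part of these shifts in the chromatin regulators was not tested.

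The complexes that hold these proteins were described with 15 lists of chromatin genes, of which 184 tested genes lie outside the families above. Among these 184 the median change was -0.01, and 37 (13 higher, 24 lower) had an unadjusted p under 0.05, which is 20.1% against 16.4% of all genes. In the limma fit 0 had an adjusted p under 0.05. With the intensity trend 11 passed, 8 lower and 3 higher, which is 5.98% against 4.30% of all genes. Whether these 11 would pass with a replicate block, or hold with 1 array left out, was not examined. Over all genes the calls of the trend fit fell from 511 to 277 when a replicate block was added.

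The largest of these changes was that of a corepressor subunit, RCOR2. RCOR2, a CoREST scaffold of neural and stem cells that partners KDM1A, read 8.98 and 8.91 in mock and 8.34 and 8.31 in origamicin cultures. It was lower by 0.62 on the log2 scale (-0.62 ± 0.07, limma adjusted p = 0.10, and 0.0034 with the intensity trend), the one partner past 1.5-fold, while RCOR3 stood at 0.16 ± 0.07. TBL1X, an NCoR subunit, read 7.24 and 7.21 against 6.71 and 6.70 (-0.52 ± 0.06, limma adjusted p = 0.11, and 0.015 with the trend). MTA1, a NuRD subunit, stood at -0.33 ± 0.07, and passed with the trend (adjusted p = 0.037). In the SIN3 and CoREST list 9 of 15 tested genes were lower, in NuRD 9 of 12 and in NCoR/SMRT 5 of 8, against 52.1% of all genes. Each of these lists includes 5 of the chromatin regulators described above, and a gene can stand in several lists.

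Polycomb and BAF lists held single genes of the same kind. EPOP, a modulator of Polycomb repressive complex 2, read 6.90 and 6.93 in mock and 6.33 and 6.54 in origamicin cultures (-0.48 ± 0.09), and PCGF2, a subunit of Polycomb repressive complex 1, stood at -0.24 ± 0.07. BCL11A, a zinc finger subunit of neural BAF complexes, read 7.71 and 7.67 against 7.13 and 7.22 (-0.52 ± 0.07). These 3 passed with the intensity trend (adjusted p = 0.042, 0.050 and 0.014) and not in the chosen limma fit (0.17, 0.23 and 0.13). LCOR (0.21 ± 0.06), PHC3 (0.27 ± 0.06) and PBRM1 (0.16 ± 0.06) led the higher side of these lists. In PRC2 8 of 11 tested genes were lower, in PRC1 9 of 20 and in SWI/SNF 6 of 15, against 52.1% of all genes. Chromatin regulators described above make up 4, 1 and 4 of the genes tested in these lists, in that order.

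**Figure D4:**
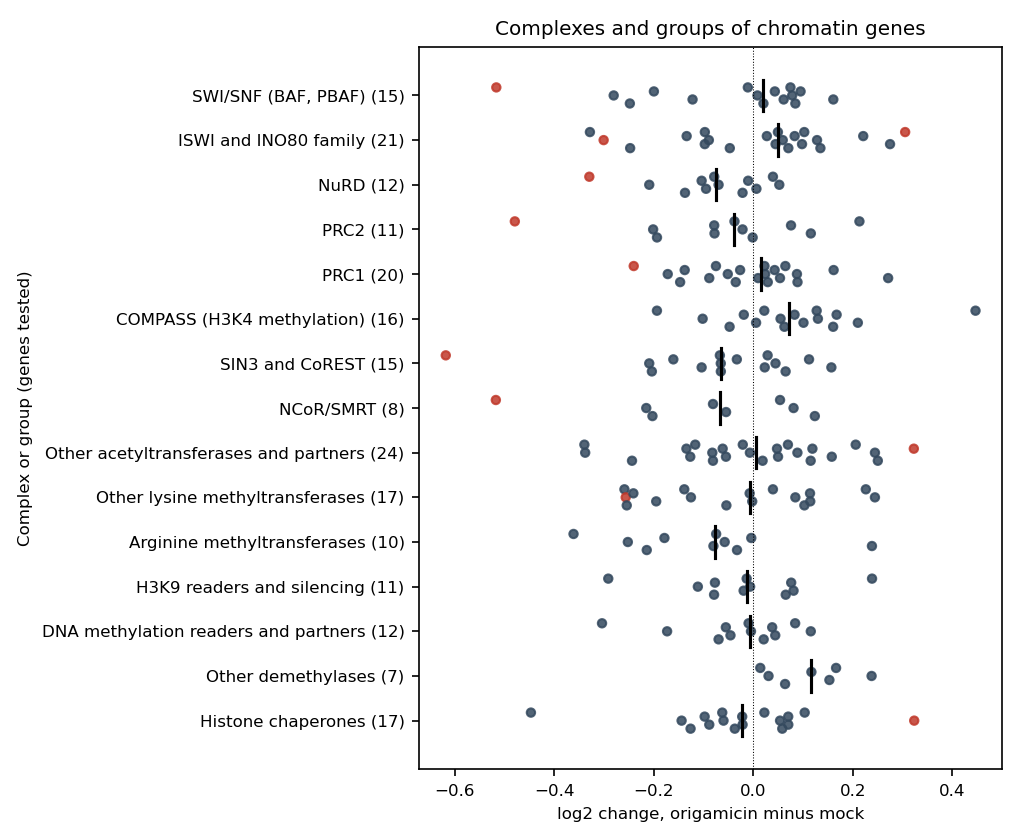
log2 change, origamicin minus mock (horizontal axis), of the tested genes in 15 complexes or groups (vertical axis, genes tested in brackets), with the list's median as a black bar and genes with an adjusted p under 0.05 in the intensity-trend fit in red. A gene can stand in several lists. List medians lie between -0.08 and 0.12, and the red point farthest to the left is RCOR2 at -0.62.

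The list of lysine 4 methylation (COMPASS) complexes, led by KMT2D, had 12 of 16 tested genes higher and a median of 0.07. Its share of lower genes was 25%, against 52.1% of all genes tested. The list includes 5 of the chromatin regulators described above, and PSIP1 at -0.19 ± 0.07 led its lower side. In the ISWI and INO80 list 13 of 21 were higher (38.1% lower, against 52.1% of all genes tested). INO80D (0.31 ± 0.07) and the ATPase RUVBL2 (-0.30 ± 0.07) stood on opposite sides there, and both passed with the intensity trend (adjusted p = 0.030 and 0.023). The coactivator NCOA1 (0.32 ± 0.07), the histone chaperone ASF1B (0.32 ± 0.07) and the methyltransferase SMYD2 (-0.26 ± 0.07) completed the 11 (adjusted p = 0.019, 0.024 and 0.040 with the trend). TADA2A, an acetyltransferase partner, stood at -0.34 ± 0.08, and the histone chaperone NAP1L3 at -0.45 ± 0.13.

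Like COMPASS, the 4 lists of arginine methyltransferases, other demethylases, lysine 9 readers and DNA methylation partners had 0 genes past an adjusted p of 0.05 in either fit. In that order, 30%, 14.3%, 18.2% and 8.33% of their genes had an unadjusted limma p under 0.05, against 16.4% of all genes. Over all genes tested 52.1% were lower. Arginine methyltransferases were lower in 9 of 10 cases, with PRMT1, the main enzyme of the family, at -0.25 ± 0.07 and PRMT8, a brain enzyme, at 0.24 ± 0.12. The 7 remaining demethylases and related oxygenases were all higher, led by HR (0.24 ± 0.08). Among readers of lysine 9 methylation, 7 of 11 were lower, with PPHLN1 at -0.29 ± 0.08 and MORC2 at 0.24 ± 0.07. DNA methylation readers and partners were lower in 7 of 12 cases, with CDCA7 at -0.30 ± 0.10 and DNMT3L at 0.12 ± 0.07. PRDM10 (0.24 ± 0.06) led the higher side of the remaining lysine methyltransferases and GPS2 (0.12 ± 0.08) that of NCoR/SMRT.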

How the data were processed

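The authors deposited 1 log2 value for each probe set and array. The submitters' processing notes name RMA, which corrects background, equalises distributions and summarises probes, and limma, both without versions. Their genome build and annotation are not stated in those notes. Array medians ran from 4.37 to 4.42, and nothing was normalized again. Such values compress changes at low and very high signal.

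A platform annotation named 1 gene for 16098 of 53617 probe sets, and 0 symbols differed from RefSeq (GRCh38.p14). The probe set with the highest mean was kept per gene. Genes with a mean under the 40th percentile of all probe sets were left out. All 11883 remaining genes were fitted with limma 3.58.1 in R 4.3.3 (lmFit, eBayes with a single prior variance, two-sided), with Benjamini-Hochberg adjustment over all of them. Each ± is the moderated SE over 2 arrays per group. The fit was also run on simulated data, with added changes larger than any seen among the chromatin regulators. That run therefore does not show whether changes of their size could be called.

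The lists, the genes in them and the tests were chosen with earlier results of these data known. The chromatin regulators were taken by a rule on symbols that does not use the values, though earlier results were known then too. The rule for named genes took the 14 members with the smallest p on each side, the leading member of each role, paralogs of these, and the leading gene on each side of each list. Other members are given as values for completeness. Same-numbered arrays deviated from their group means with r = -0.02, so the replicate numbers were not taken to pair the arrays.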

Additional observations from a re-analysis of the deposited data

How the results depend on the processing

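The variance model (intensity trend or robust), the filter (none, or the 60th percentile), the scaling (equal medians or quantiles), probe set averaging, a replicate block, an adjusted p of 0.1 and each array left out were tried. An intensity trend combined with a replicate block, or with each array left out, was added after seeing the data. Over all genes, 0 passed in the chosen limma fit (1950 at an unadjusted p under 0.05), 53 at an adjusted p of 0.1, 92 with the 60th percentile filter, 511 with the trend, 277 with the trend and a replicate block, and 58 to 323 (60, 58, 196 and 323) with the trend and 1 array left out. Among chromatin regulators the count was 0 in the chosen fit and in every alternative without the trend, 2 with the trend, and 0 to 1 with the trend and 1 array left out. At an unadjusted p under 0.05 it was 15, then 28 with the trend, 29 (27.6%, against 19.5% of all genes) with the trend and a replicate block, 6 to 8 with 1 array left out (5.71% to 7.62%, against 10.6% to 14.05%), and 14 to 21 with that and the trend (13.3% to 20.0%, against 14.2% to 18.6%). The median change ran from -0.04 to -0.01. With a replicate block alone, 0 genes passed and 11 chromatin regulators had an unadjusted p under 0.05 (10.5%, against 14.46% of all genes). Arrays with the same number share only that number. The lone array of a group was assumed to vary like the other group. Of the 39 genes named by rule, the sign turned for KDM6A (-0.011 with equal medians, and -0.049 to 0.060 with 1 array left out, being -0.049 without mock replicate 1 and -0.019 without origamicin replicate 2) and for SIRT6 (-0.093 to 0.076 with 1 array left out, the latter without origamicin replicate 2), the same with and without the trend. Both lie at 0.01 or less from 0 with all arrays. Other named values that moved by over 1.5 times were PHF19 (-0.13 without origamicin replicate 2), PHF20L1 (0.12 without mock replicate 2), KMT5B (-0.10 without mock replicate 1), KAT6B (0.10 without origamicin replicate 1) and ARID3C (0.06 without mock replicate 1), beside HDAC10, PHF1 and genes within about 0.1 of 0.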
